A study of Mus musculus with 18 samples.

Results

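The epithelium of the early mouse lung was followed through 10 genes in bulk RNA-Seq of embryonic lungs. The genes were Nkx2-1, Foxa1, Foxa2, Sox2, Sox9, Sftpc, Epcam, Cdh1, Krt8 and Krt18, taken by symbol from 3 tables of 23420 rows each, and all 10 were present and tested in each table. Each table held 1 experiment with 3 control and 3 mutant libraries, 18 libraries in all. In the first, Vangl1-/- controls were compared with Vangl1-/-; Vangl2-/- mutants at E12.5dpc, so that both groups lacked Vangl1, through a gene-trap allele, and the mutants also lacked Vangl2, removed with a Sox2-Cre transgene. In the second, Wnt5af/+; Dermo1Cre controls were compared with Wnt5af/f; Dermo1Cre mutants at E12.5dpc, and in the third, Wnt5af/+; Sox9Cre controls with Wnt5af/f; Sox9Cre mutants at E13.5dpc. Both groups of a Wnt5a experiment carried the Cre and at least 1 floxed Wnt5a allele. Dermo1-Cre is a Cre in the Twist2 gene that acts in the mesenchyme, and Sox9-Cre is a Cre in the Sox9 gene, itself 1 of the 10, that acts in the distal epithelium. How many embryos made up a library was not given in the sources used here, so that the p-values measure the spread between these libraries, which may be technical. Whole lungs were sequenced, and fewer epithelial cells cannot be told apart from less RNA of a gene per epithelial cell.

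The lung epithelium arises from the ventral foregut, where Nkx2-1, a homeodomain factor, marks the cells that become trachea and lung. Foxa1 and Foxa2 encode forkhead factors of the foregut endoderm that act in airway and saccule formation. As the tubes branch, Sox9 is made in the growing distal tips and Sox2 in the stalks and proximal airways. Sftpc, the gene of surfactant protein C, is an early mark of the distal cells. Epcam and Cdh1, the gene of E-cadherin, encode adhesion proteins of epithelia, and Krt8 and Krt18 encode the keratin pair of simple epithelia. Wnt5a is a secreted ligand and Vangl1 and Vangl2 are membrane proteins of the planar cell polarity pathway, which orients cells within a sheet.

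By the GENCODE annotation of GRCm38, the build the authors named as mm10, Nkx2-1 lies at chr12:56531958-56536908 and Foxa1 at chr12:57540628-57546916, both on the minus strand. Foxa2 lies at chr2:148042877-148046969 (minus), Sox9 at chr11:112782224-112787760 (plus) and Sftpc at chr14:70520949-70524081 (minus). Sox2, at chr3:34650405-34652461 (plus), lies inside the span of the noncoding gene Sox2ot on the same strand, which had at most 17 normalized counts in a library. Epcam lies at chr17:87635979-87651129 (plus) and Cdh1 at chr8:106603351-106670246 (plus). Krt8 (chr15:101996698-102004482, minus) and Krt18 (chr15:102028180-102032027, plus) are neighbours that are read away from each other.

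The libraries held between 15945393 and 19814346 reads on genes. Values are normalized counts, that is, reads on a gene divided by a size factor of the library (0.952 to 1.07), and they were comparable within a table only. Vangl2 was lower in the mutants lacking it, at 85.3 ± 5.01 normalized counts (SD, n = 3) against 339 ± 64.9 in the controls (log2 difference -1.96, limma adjusted p = 0.032). Wnt5a lay at 472, 430 and 489 in the Dermo1Cre controls and at 317, 436 and 230 in the mutants, so that mutant replicate 2 stood within the control range (log2 difference -0.55, limma adjusted p = 0.406). In the Sox9Cre experiment Wnt5a had 451 ± 23.5 in the controls and 417 ± 48.0 in the mutants, and the groups overlapped. These counts cover the whole Wnt5a gene. In the Vangl1/2 experiment control replicate 2 stood with the mutants and apart from control replicates 1 and 3. Deviations from the mean of the table correlated with transcript length across 13437 genes with a Spearman rho of 0.38 in control replicate 2 and of 0.48 to 0.61 in the mutants, but of -0.67 and -0.63 in the other controls.

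All 10 genes were expressed in every library, and Epcam and Sox2 stood at the ends of their order in all 3 sets of controls. Per kilobase of transcript, Epcam was highest in each, at 1618 ± 48.9 normalized counts per kilobase in the Dermo1Cre controls, where Sftpc (1552 ± 175) had a range that overlapped it. Nkx2-1 (913 ± 101) and Krt18 (906 ± 82.2) did not differ beyond their spread. Krt8 (676 ± 12.6) and Cdh1 (479 ± 17.3) followed, each apart from its neighbours. Sox9 (398 ± 13.2) and Foxa1 (365 ± 27.9) overlapped. Foxa2 (281 ± 10.5) and Sox2 (177 ± 11.8) were lowest. Sftpc came next after Epcam in both Wnt5a experiments and behind Krt18 in the Vangl1/2 controls, where its range overlapped those of Krt18 and Nkx2-1.

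**Figure D1:**
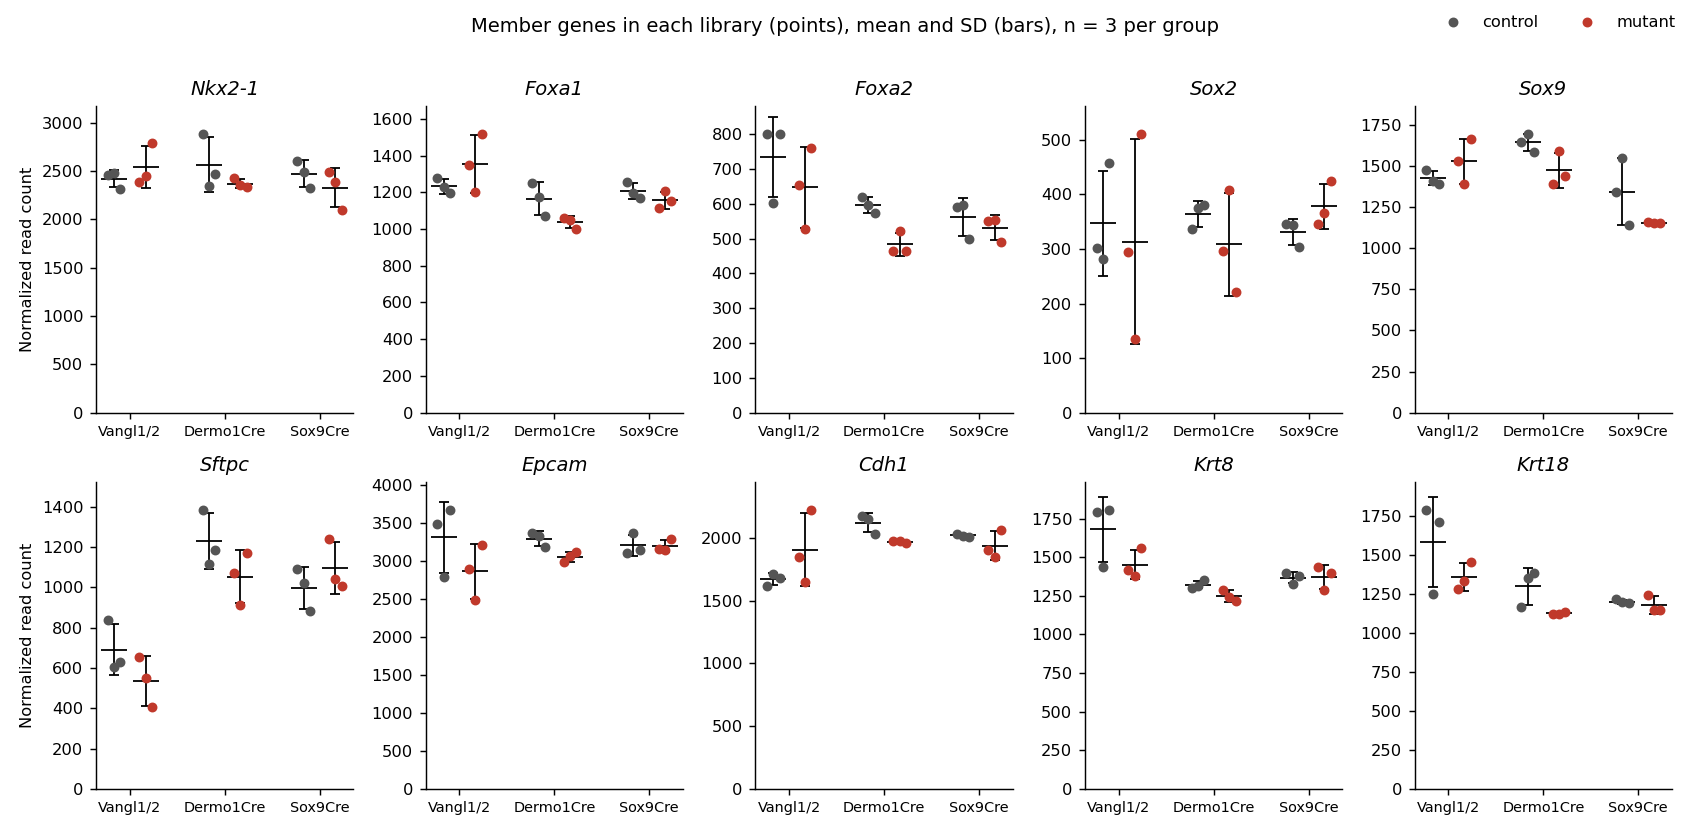
Normalized read counts (y axes, from 0) of the 10 genes in each library of the 3 experiments (x axes), with grey points for controls, red points for mutants and bars for the mean and SD of 3 libraries. In the Dermo1Cre panels the red points of Foxa2 lie below all grey points, and in the Vangl1/2 panels the red points of Sox2 spread from 135 to 511.

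In lungs with Wnt5a targeted in the mesenchyme, all 10 genes had lower means in the mutants than in the controls. The changes ran from -19.1% for Foxa2 to -5.62% for Krt8, and 49.7% of the 14277 genes tested were below 0. For 6 genes (Foxa1, Foxa2, Epcam, Cdh1, Krt8 and Krt18) every mutant library lay below every control library, where 7.92% of all genes did so and 7.65% lay wholly above. No gene of the 10 passed an adjusted p under 0.05 with limma (Benjamini-Hochberg over all genes tested), as 0.014% of all genes did. At an unadjusted p under 0.05, 7 of the 10 were lower (Foxa1, Foxa2, Sox9, Sftpc, Epcam, Cdh1 and Krt18), against 4.76% of all genes lower and 5.42% higher. With edgeR and with DESeq2, 0 passed the adjusted and 6 the unadjusted threshold. The median log2 difference of the 10 was -0.16, beside 0.00071 over all genes tested. The count at the unadjusted threshold was 3 without control replicate 1 or control replicate 2 and 4 without mutant replicate 3. Without mutant replicate 2, in which Wnt5a stood within the control range, it was 6 and the median -0.15.

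Foxa2 showed the largest difference. It had 619, 597 and 575 normalized counts in the Dermo1Cre controls and 465, 521 and 463 in the mutants. The highest mutant stood 53.7 below the lowest control. The log2 difference was -0.31 (SE 0.068, 95% interval -0.46 to -0.15, limma adjusted p = 0.198), and its p ranked 92 among all genes tested. Over the alternatives the adjusted p ran from 0.139 to 0.692, and the unadjusted p was under 0.05 in each. Foxa1, its close relative, had 1251, 1174 and 1073 in the controls and 1062, 1052 and 1002 in the mutants. The gap between the groups was narrow, with a log2 difference of -0.16 (SE 0.062, adjusted p = 0.433 by limma). Nkx2-1 had 2884, 2343 and 2471 against 2425, 2353 and 2332, and the groups overlapped. Its log2 difference of -0.11 shrank to -0.022 without control replicate 1, the highest of the 6.

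Sox9 and Sox2, the marks of the distal and proximal domains of the epithelium, both had lower means in the mutants. In whole lungs, reads of either gene from cells outside the epithelium were not told apart. Sox9 had 1648, 1697 and 1588 in the Dermo1Cre controls and 1389.6, 1596 and 1440 in the mutants (log2 difference -0.16, SE 0.058, adjusted p = 0.426 by limma). Mutant replicate 2 alone reached the control range. Sox2 had 337, 375 and 381 against 296, 409 and 221, the mutants lying on both sides of the controls (log2 difference -0.28, 95% interval -0.69 to 0.13). That difference was -0.51 without mutant replicate 2 and -0.064 without mutant replicate 3. Sftpc had 1384, 1116 and 1188 in the controls and 1074, 913 and 1171 in the mutants, with 1 mutant inside the control range (log2 difference -0.23, adjusted p = 0.49 by limma).

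The adhesion and keratin genes had changes of -13.1% (Krt18) to -5.62% (Krt8). Epcam had 3374, 3339 and 3187 in the Dermo1Cre controls and 2987, 3069 and 3118 in the mutants, a change of -7.32% (adjusted p = 0.427 by limma). Cdh1 had 2176, 2154 and 2033 against 1973, 1976 and 1962, and the 3 mutants agreed within 13.7 normalized counts. Krt18 had 1166, 1353 and 1385 against 1124, 1124 and 1135, with control replicate 1 close to the mutants. Krt8, its partner, had 1304, 1314 and 1351 against 1288, 1243 and 1214, the smallest deficit of the 10 (log2 difference -0.083, 95% interval -0.18 to 0.017). Krt8 transcripts share up to 941 bases at 98% identity or more with Krt8-ps and Gm36026, and Gm36026 overlaps a Krt8 exon on the other strand. Neither had a row of its own in the 3 tables, and whether Krt8 reads were lost to them was not tested.

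**Figure D2:**
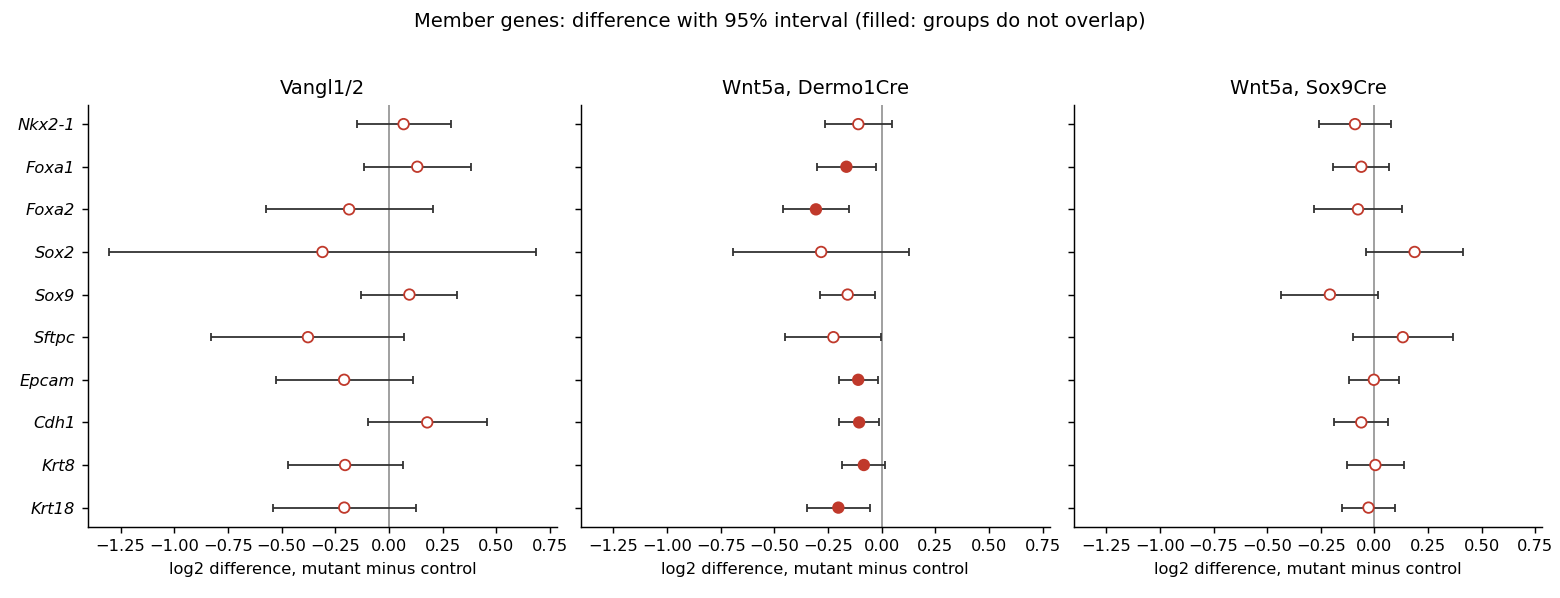
Log2 difference, mutant minus control (x axes), of the 10 genes (y axis) in the 3 experiments, with 95% intervals from limma and filled points where the groups do not overlap. In the Dermo1Cre panel all 10 points lie below 0, and in the other panels points lie on both sides of 0.

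The sequences before the start sites of genes whose Dermo1Cre groups did not overlap are shown, so that the windows searched for motifs can be read. None of these genes passed the adjusted threshold. RefSeq promoters on GRCm38.p6 matched 7 of the 10 genes, and Sox9, Sftpc and Cdh1 had no entry. Each line gives up to 250 bases before a start, 5′ to 3′ on the strand of the gene, without the part that the annotation places inside the gene. Foxa2 has 3 listed starts, of which the one at the start of the annotated gene is shown. Foxa1 and Krt8 are not shown because their listed starts lie 805 and 140 bases inside the annotated gene. Capitals mark the only motif of the 6 searched that was found in these windows, CACCTG or its reverse complement.
Foxa2, chr2:148046970-148047219, minus strand: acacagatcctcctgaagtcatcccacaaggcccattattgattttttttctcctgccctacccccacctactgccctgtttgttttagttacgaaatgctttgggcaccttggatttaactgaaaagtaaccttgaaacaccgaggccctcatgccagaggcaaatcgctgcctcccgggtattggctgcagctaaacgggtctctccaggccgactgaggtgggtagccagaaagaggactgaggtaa
Epcam, chr17:87635729-87635978, plus strand: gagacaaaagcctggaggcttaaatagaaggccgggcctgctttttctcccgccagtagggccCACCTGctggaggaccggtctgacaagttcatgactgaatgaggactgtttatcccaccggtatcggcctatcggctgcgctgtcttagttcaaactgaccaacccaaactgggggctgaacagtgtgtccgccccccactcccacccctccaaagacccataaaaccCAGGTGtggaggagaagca
Krt18, chr15:102027966-102028179, plus strand: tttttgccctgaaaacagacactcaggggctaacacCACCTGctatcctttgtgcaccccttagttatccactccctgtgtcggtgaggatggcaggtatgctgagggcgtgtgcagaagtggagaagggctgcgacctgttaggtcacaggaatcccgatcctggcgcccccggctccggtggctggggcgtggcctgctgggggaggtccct

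The search covered both strands of the 250 bases before each listed start, and its motifs were chosen after some of the sequences had been seen. CACCTG, an E-box that Snail repressors bind, lay in the windows of 5 of the 7 genes (Nkx2-1, Foxa1, Epcam, Krt8 and Krt18), and 17.2% of the 32851 windows in the table held it. Epcam had it in both directions, 187 and 19 bases before the start. The forkhead motif TGTTTAC lay in Foxa1, 141 bases before the start, and in 3.17% of all windows. All matches in Foxa1 and Krt8 lay inside the annotated genes, as their listed starts lie 805 and 140 bases in. A core that NKX2-1 binds, CTCAAG (13.3% of all windows), lay 187 bases before the most 3′ of the Foxa2 starts, on the opposite strand. The letters of the TATA box, TATAAA (12.4%), lay 208 bases before that start, also on the opposite strand. That start lies 1505 bases inside the annotated gene, and so did both matches. None of the 6 motifs was in the Foxa2 window printed above. The other forkhead motif, TGTTTGC (4.3% of all windows), and the SOX motif ACAATG (10.7%) were in none of these genes' windows. A match is a run of letters and not a site shown to be bound.

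In lungs with Wnt5a targeted by Sox9Cre, the control and mutant libraries of all 10 genes overlapped. Over all genes, 4.36% were lower and 4.42% higher without overlap. For the 10 genes, 7 of 10 log2 differences were below 0, against 49.3% of the 14293 genes tested. No gene of the 10 passed the adjusted threshold with limma, edgeR or DESeq2, as 0% of all genes did with limma. At an unadjusted p under 0.05, 0 of the 10 passed with limma and edgeR and 1, Sox9, with DESeq2. Over all genes, 2.81% were lower and 1.08% higher at that threshold with limma (557 genes), and edgeR and DESeq2 gave 531 and 325. The median log2 difference of the 10 was -0.045.

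Sox9 and Sox2 stood at the opposite ends of these differences. Sox9 had 1346, 1549 and 1143 normalized counts in the Sox9Cre controls and 1158, 1156 and 1155 in the mutants. The mutants were almost equal, and control replicate 3 lay just below them. The log2 difference was -0.21 (95% interval -0.43 to 0.018, adjusted p = 0.9999 by limma). It was -0.10 without control replicate 2 and -0.32 without control replicate 3. Both groups carried the Cre in the Sox9 gene, and the part of that allele in the level of Sox9 was not tested. Sox2 had 346, 344 and 304 in the controls and 345, 365 and 424 in the mutants (log2 difference 0.19, 95% interval -0.040 to 0.41, adjusted p = 0.9999 by limma). Its 3 mutants reached from the top of the control range upward.

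Because both genes are read in the same library, their ratio does not depend on the size factor. There were 3.89, 4.50 and 3.76 reads of Sox9 for each of Sox2 in the Sox9Cre controls and 3.35, 3.17 and 2.72 in the mutants, and the groups did not overlap. The log2 ratio was lower by 0.39 (95% interval -0.73 to -0.063), and leaving out any 1 library kept it between -0.46 and -0.31. The exact permutation test gave p = 0.1 (two-sided), the smallest that 3 against 3 libraries allow, and so cannot pass 0.05. In the Dermo1Cre experiment the ratios were 4.90, 4.52 and 4.16 in the controls and 4.69, 3.90 and 6.52 in the mutants (log2 difference 0.12, 95% interval -0.51 to 0.75, exact permutation p = 0.8). Without mutant replicate 3 the difference there was -0.079. In the Vangl1/2 experiment they were 4.90, 5.01 and 3.04 against 5.19, 10.3 and 3.25 (log2 difference 0.41, 95% interval -1.08 to 1.89, exact permutation p = 0.4), and -0.036 without mutant replicate 2. Whether the 3 experiments differed from each other was not tested.

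**Figure D3:**
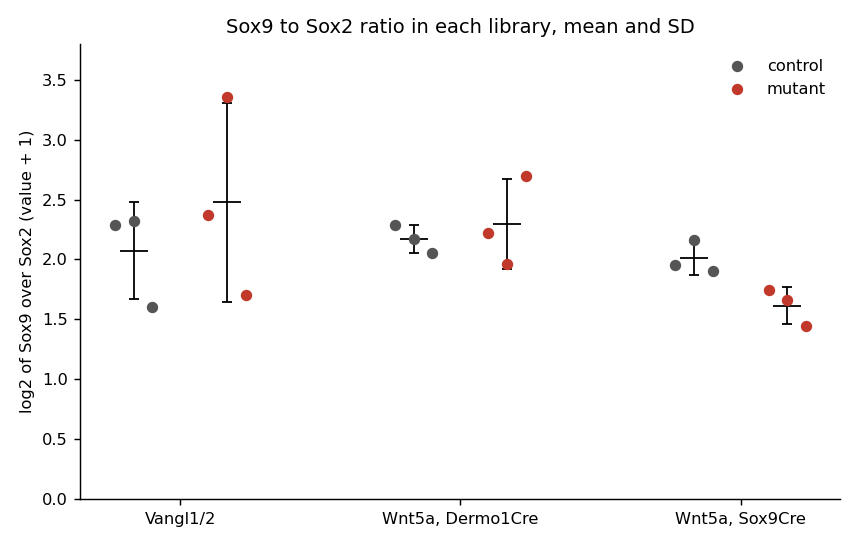
Log2 ratio of Sox9 to Sox2 (y axis, 1 added to each normalized count) in each library of the 3 experiments (x axis), with grey points for controls, red points for mutants and bars for the mean and SD of 3 libraries. In the Sox9Cre experiment the 3 red points lie below the 3 grey points, and in the Vangl1/2 experiment 1 mutant lies far above the other libraries.

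The remaining genes of the Sox9Cre experiment differed little. Epcam had 3105, 3371 and 3155 in the controls and 3165, 3144 and 3299 in the mutants (log2 difference -0.0030, 95% interval -0.12 to 0.11). Krt8 differed by 0.0040 (95% interval -0.13 to 0.14) and Krt18 by -0.028 (95% interval -0.15 to 0.097). Sftpc had 1089, 1023 and 885 in the controls and 1241, 1040.0 and 1005 in the mutants, 9.58% higher with an interval from -6.72% to 28.7%. Foxa2 had 590, 595 and 499.8 against 550, 554 and 490.0, and 1 library of each group lay well below its fellows. Its log2 difference was -0.077 (95% interval -0.28 to 0.13), a change of -5.20% with an interval from -17.8% to 9.29%. Nkx2-1 (-0.091), Foxa1 (-0.061) and Cdh1 (-0.061) had intervals that included 0.

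In lungs lacking Vangl1 and Vangl2, the libraries of all 10 genes overlapped those of lungs lacking Vangl1 alone, where 8.68% of the 14303 genes tested were lower and 13.6% higher without overlap. For the 10 genes, 6 log2 differences were below 0, against 51.2% of all genes. No gene of the 10 passed the adjusted or the unadjusted threshold with limma, edgeR or DESeq2, against 0.00699% of all genes at the adjusted one with limma. At the unadjusted threshold with limma, 8.56% of all genes were lower and 12% higher. The median log2 difference of the 10 was -0.20, beside -0.0093 over all genes tested.

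The direction of each gene went with the length of its transcript. The 6 genes with transcripts of 792 to 2128 bases (Sftpc, Krt18, Krt8, Epcam, Sox2 and Foxa2) had log2 differences of -0.38 to -0.19. The 4 with transcripts of 2809 to 4430 bases (Nkx2-1, Foxa1, Sox9 and Cdh1) had differences of 0.068 to 0.18. The split at this length was made after the values had been seen. Across all genes with a length, the Spearman rho between the log2 difference and length was 0.72, as a description over genes that share the 6 libraries, and it was 0.25 in the Dermo1Cre and -0.035 in the Sox9Cre experiment. With the trend of each library on length removed, the 10 genes lay between -0.14 and 0.15, and Sftpc and Krt18 changed sign to 0.043 and 0.065. In the Dermo1Cre experiment all 10 stayed below 0 with the trend removed, from -0.28 to -0.051.

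**Figure D4:**
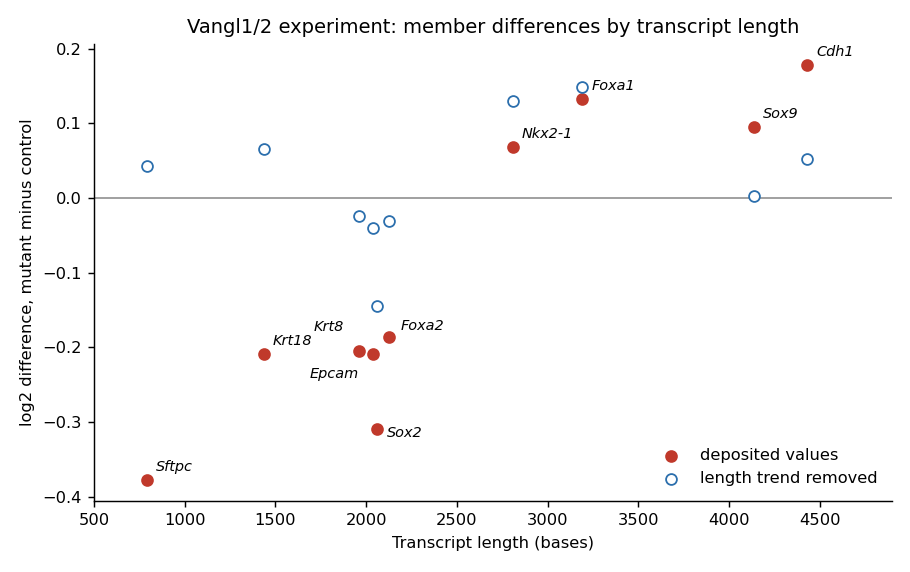
Log2 difference, mutant minus control, in the Vangl1/2 experiment (y axis) against transcript length in bases (x axis), with filled points for the deposited values and open points after the trend on length was removed. The filled points of the 6 shorter transcripts lie below 0 and those of the 4 longer ones above it, and the open points lie between -0.14 and 0.15.

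These values depended on control replicate 2. Epcam had 3492, 2790.1 and 3675 in the Vangl1/2 controls and 2899, 2489 and 3212 in the mutants, and control replicate 2 was below 2 of the 3 mutants. Krt8 had 1795, 1440 and 1805 against 1418, 1380 and 1559, with the same control near the mutants. Krt18 had 1791, 1254 and 1716 against 1286, 1332 and 1458, and there control replicate 2 was the lowest of the 6. Without this library, 3 of the 10 genes were called lower by limma, namely Epcam (log2 difference -0.33, adjusted p = 0.021), Krt8 (-0.31, adjusted p = 0.0079) and Krt18 (-0.37, adjusted p = 0.0036). Among all genes 6180 were then called in either direction, where 14303 had been tested with all 6 libraries, so that such calls were common. The trend on length was as steep without control replicate 2 (Spearman rho 0.72). The part of transcript length in these calls was not tested separately.

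Of the 10, Sox2 varied most between libraries of 1 group. It had 302, 281 and 458 in the Vangl1/2 controls and 295, 135 and 511 in the mutants, so that the lowest and the highest of the 6 were both mutants. Its log2 difference was -0.31 (95% interval -1.30 to 0.68), and 0.20 without mutant replicate 2. Sox9 had 1479, 1411 and 1395 against 1529.7, 1394 and 1663 and was far steadier. Sftpc had 837, 607 and 632 against 652, 552 and 406, with mutant replicate 3 the lowest (log2 difference -0.38, 95% interval -0.83 to 0.072, adjusted p = 0.286 by limma). Foxa2 had 800.4, 602 and 801 against 655, 526 and 760.2, and Cdh1 had 1618, 1716 and 1678 against 1844, 1649 and 2222. Mutant replicate 3 was the highest of the 6 libraries for Cdh1, Sox9, Sox2, Foxa1 and Nkx2-1.

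Further genes of the lung epithelium were read from lists of junction and surface genes, of transcription and splicing factors, of distal tip genes and of proximal airway genes. In the Dermo1Cre experiment 45 of the 63 genes tested in these lists were below 0, against 49.7% of all genes. The groups did not overlap in 4 of 22 junction and surface genes and 5 of 18 factors. They also did not overlap in 1 of 16 distal tip genes and 1 of 7 proximal airway genes. All 11 were lower in the mutants, where 7.92% of all genes were lower and 7.65% higher without overlap. None passed the adjusted threshold with limma, and 9 passed the unadjusted one, all lower, against 4.76% of all genes lower and 5.42% higher. Tjp3, a tight junction scaffold (175 ± 15.9 to 147 ± 9.77), Elf5, an ETS factor (177 ± 10.9 to 142 ± 10.7), and Muc1, a surface mucin (181 ± 21.7 to 135 ± 2.81), had the largest deficits among the genes of their lists without overlap. The list medians were -0.10, -0.086, -0.042 and -0.31, and the proximal median rests on genes with few reads.

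In the Sox9Cre experiment the 4 medians were -0.0016, -0.044, 0.0013 and 0.16, the last being -0.020 without control replicate 2. Muc1 (163 ± 22.8 to 126 ± 9.51) was again without overlap, as were Ap1m2, an adaptor of sorting to the basolateral membrane (log2 difference -0.066), Ovol2, a zinc finger factor (-0.33), Gata6, an endoderm factor (-0.20), and Esrp1, an epithelial splicing factor (0.093). None of the 63 genes passed the adjusted threshold with limma, and 2 passed the unadjusted one, both lower, against 2.81% of all genes lower and 1.08% higher. In the Vangl1/2 experiment none of 61 passed the adjusted threshold, and 3 lower and 3 higher passed the unadjusted one, against 8.56% and 12% of all genes. The 4 medians there were -0.12, -0.058, 0.062 and -0.52. Tfcp2l1, a grainyhead-like factor (20.5 ± 7.81 to 48.2 ± 5.54), Cxadr, a junction receptor (1519 ± 217 to 1988 ± 141), and Etv5, a target of FGF signals at the tips (5673 ± 226 to 6263 ± 239), had the largest positive differences without overlap in their lists. Scgb3a2, a secretoglobin of airway cells, was lower (22.8 ± 1.37 to 6.95 ± 2.64), as were Cldn7, a claudin (621 ± 87.8 to 491 ± 41.1), and Ovol1 (18.4 ± 2.01 to 13.2 ± 3.88). Scgb3a2 had few reads and passed the filter on low values through its controls alone, so its difference is no evidence of a change. Without control replicate 2, and with the length trend kept, the proximal airway median was -0.18 rather than -0.52, with Scgb3a2 no longer among its genes. After removal of the length trend with all 6 libraries kept, the 4 medians were 0.0052, -0.049, 0.12 and -0.31. The log2 difference of Cldn7 then went from -0.33 to -0.039, that of Cxadr from 0.40 to 0.13, that of Etv5 from 0.14 to 0.069 and that of Tfcp2l1 from 1.26 to 0.77. Ovol1 went from -0.48 to -0.44 and Scgb3a2 from -1.64 to -1.24.

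**Figure D5:**
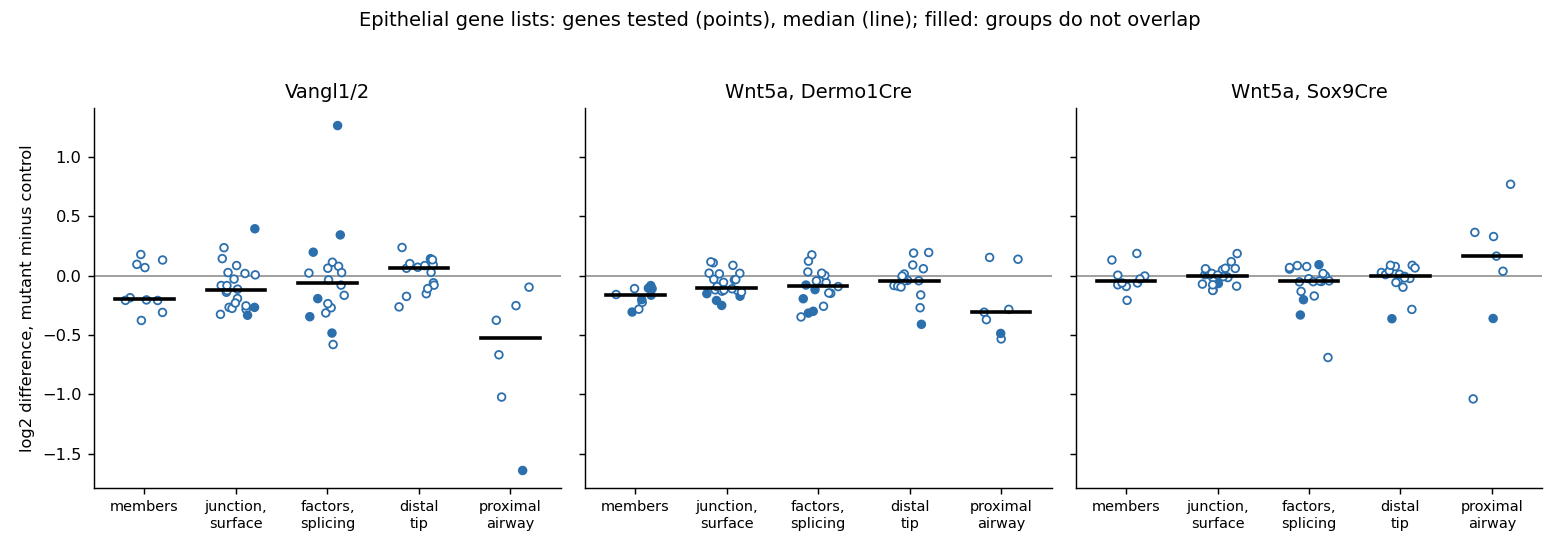
Log2 difference, mutant minus control (y axis), of the genes tested in the 10-gene set and in 4 epithelial lists (x axis) in the 3 experiments, with black lines for the medians and filled points where the groups do not overlap. The filled points of the Dermo1Cre panel all lie below 0.

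Markers of other cells differed between the groups too. In the Dermo1Cre experiment the 8 neuron genes were all higher in the mutants without overlap, where 7.65% of all genes were. The neuron genes had a lowest adjusted p = 0.146 by limma. Their summed level was 591 to 938 normalized counts in the controls and 1210.1 to 2494 in the mutants, with Stmn2, the most abundant, at 163 to 276 and 307 to 632. In the Sox9Cre experiment the same 8 genes were all below 0, against 49.3% of all genes. The neuron sums there were 1450.0 to 1900.4 in the controls and 1951, 720.2 and 757 in the mutants. In the Dermo1Cre experiment the 10 mesenchyme genes summed to 97757 to 109665 in the controls and to 88712 to 96580.3 in the mutants. For 9 of them the log2 difference was below 0, against 49.7% of all genes, and Col3a1 was the most abundant of the 10. The 10 epithelial genes summed there to 15232 to 16142 against 14058 to 14257. Cardiomyocyte genes, led by Actc1, summed to 777 to 17855 over the 6 Dermo1Cre libraries. In these libraries the sum of the proximal airway genes was high in control replicate 3 (631) and mutant replicate 2 (500.2), where Sox2 was also highest. It was low in mutant replicate 3 (166), where Sox2 was lowest. The match did not hold throughout the other experiments. Vangl1/2 control replicate 2 had the highest proximal sum of its group but the lowest Sox2, while the Vangl1/2 mutants had the same order in both. Sox9Cre mutant replicate 1 had the highest proximal sum of its group but the lowest Sox2. Sox9Cre control replicate 1 was the highest of its group in both. In the Sox9Cre experiment all 7 mesothelium genes tested were below 0 (3496 to 4322 against 2737 to 3442, led by Upk3b), as were all 8 cardiomyocyte genes (4539 to 16259 against 945 to 4909). Of all genes tested there, 49.3% were below 0. In the Vangl1/2 experiment mesothelium genes summed to 2506 to 4095 in the controls and to 3869 to 6656 in the mutants. Endothelial genes, led by Cdh5, summed to between 11367 and 13832 in all 18 libraries. Of the thyroid genes, which could also bring Nkx2-1, Slc5a5 stayed under 10 normalized counts in all 18 libraries, and Gkn1, Tff2, Krt13 and Cdx2 of the stomach and esophagus list did too. Other genes of these lists were detected and varied between libraries. The thyroid list summed to between 17.6 and 65.4 normalized counts, and the stomach and esophagus list to between 19.0 and 129. Barx1, the most abundant of the latter, reached 68.3 in a Sox9Cre mutant. Genes of cartilage progenitors summed to 4701 to 4912 in the Sox9Cre controls and to 4788 to 5517 in the mutants. In the Dermo1Cre experiment they summed to 4677 to 4877 against 4690 to 5418. In the Vangl1/2 experiment the sums were 3899 to 4847 against 4397 to 5709. The part of these cells in the levels of the 10 genes, and in the Sox9 to Sox2 ratio, was not tested.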

How the data were processed

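Lungs of mouse embryos were profiled by bulk RNA-Seq in 18 libraries, 3 control and 3 mutant in each of 3 experiments, grouped by sample title. Per the submitters' processing notes, reads were handled with Trim Galore, HISAT2, featureCounts and DESeq2 on mm10 (versions not given in the sources used here). The deposited values are a signal, gene counts that the authors divided by DESeq2 size factors within each experiment. They come back as whole reads for all genes within 4.6e-05 of a read, which gave the depth of 15945393 to 19814346 reads per library. The strand setting of the counting was not given in the sources used here. The authors also deposited, for each experiment, a mean over libraries and the log2 fold changes and p-values of their own comparison, and these 9 columns were not used.

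Genes with 10 or more normalized counts in at least 3 of 6 libraries were tested with limma 3.58.1 (limma-trend, R 4.3.3) on log2(normalized count + 1), so that fold changes of low genes are understated, with Benjamini-Hochberg adjustment over all genes tested and a threshold of 0.05. edgeR 4.0.16 (quasi-likelihood, TMM) and DESeq2 1.42.0 on the recovered reads, TMM scaling, a pseudocount of 5, no filter, the replicate number as a block, removal of a lowess trend (span 0.3) on transcript length and leaving out each library were alternatives. The Sox9 to Sox2 ratio was tested with an exact two-sided permutation test, and its 95% interval came from the pooled spread of the 2 groups. Replicates differed by more than counting noise in every group. The scripts were tested on simulated data. The 10 genes, the lists and the tests were chosen with earlier results of these data known. Genes of a list were named as the largest positive and the largest negative difference among those whose groups did not overlap, and others were named after their values had been seen. A few genes that the rule would name are not reported here. Likeness of pattern was Pearson's r over libraries among genes with a mean of 50 or more.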

Additional observations from a re-analysis of the deposited data

How the results depend on the processing

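No alternative made a call among the 10 genes except leaving out control replicate 2 of the Vangl1/2 experiment. Of the results that answer a comparison, 120 values counted as the same, 25 moved and 2 reversed. The same meant an unchanged sign for the Sox9 to Sox2 ratio and an equal or near count for numbers of calls. For medians it meant a shift within the spread. Of the single-gene values 377 kept direction and side of the threshold, 10 reversed and 3 became calls. The number of all genes called was 20 (Vangl1/2), 100 (Dermo1Cre) and 9 (Sox9Cre) with DESeq2, against 1, 2 and 0 with limma. Same-numbered control and mutant libraries deviated together with correlations of -0.223 to 0.303, not over 0.1 in every pair, so the numbers were not taken as pairs. With the replicate block 0 genes were called in the Vangl1/2 and 16 in the Dermo1Cre experiment, and it changed no call of the 10. With the trend of the Vangl1/2 libraries on transcript length removed, the median of the 10 was 0.023 and Sftpc (0.043) and Krt18 (0.065) reversed.

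Leaving out each library gave Sox9 to Sox2 log2 differences of -0.036 (without mutant replicate 2) to 0.79 (without mutant replicate 3) in the Vangl1/2 experiment, of -0.079 (without mutant replicate 3) to 0.29 (without mutant replicate 2) in the Dermo1Cre experiment, and of -0.46 to -0.31 in the Sox9Cre experiment. Genes called ranged from 0 to 6180 (without control replicate 2) in the Vangl1/2 experiment, with 0 to 3 of the 10, from 0 to 52 (without mutant replicate 1) in the Dermo1Cre and from 0 to 13 (without mutant replicate 1) in the Sox9Cre experiment. The median of the 10 ranged from -0.32 (without control replicate 2) to 0.024 (without mutant replicate 2) and from -0.17 to -0.12 in the first 2. Sox2 in the Vangl1/2 experiment ranged from -0.76 (without mutant replicate 3) to 0.20 (without mutant replicate 2). Values near 0 changed sign, namely Nkx2-1 (-0.00016 to 0.11) in the Vangl1/2 and Epcam (-0.027 to 0.033) and Krt8 (-0.029 to 0.050) in the Sox9Cre experiment. The cause was not tested. Sox2, the least abundant of the 10, had at least 135 normalized counts in each library.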

Other observations

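The genes whose deviations from the group means were most like those of Nkx2-1, Sox2 and Sox9 over the 12 libraries of the Wnt5a experiments were not genes of the epithelial lists. The measure was Pearson's r of the deviations of log2(normalized count + 1) among 12037 genes, given as a description over libraries that share depth and makeup. For Nkx2-1 the 5 most alike were Nsun5 (0.951), Tbc1d10a (0.949), Enc1 (0.929), Hr (0.925) and BC037034 (0.908). For Sox2 they were Cd55 (0.962), Atxn7l3b (0.929), Itih5 (0.928), Rgp1 (0.925) and Adam28 (0.907). For Sox9 they included Zfp710 (0.935), Rasgrp4 (0.917), Lsm2 (0.914) and Exd2 (0.908). Over all 18 libraries none of these genes was again among the 5 most alike, and Wdr24 (0.819), Pdcd4 (0.897) and Lrrc8d (0.840) came first for Nkx2-1, Sox2 and Sox9.

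Twist2, the gene that holds Dermo1-Cre, had 286 ± 39.1 normalized counts in the Dermo1Cre controls and 174 ± 25.0 in the mutants (log2 difference -0.72, limma adjusted p = 0.186). Twist2 was also lower without overlap in the Vangl1/2 mutants, which carry no Dermo1-Cre, at 382 ± 7.63 against 511 ± 29.2 (log2 difference -0.42, limma adjusted p = 0.233). Of all genes, 7.92% in the Dermo1Cre and 8.68% in the Vangl1/2 experiment were lower without overlap. In the Vangl1/2 experiment, in which both groups carry the gene-trap allele, Vangl1 stood at 165 ± 52.8 normalized counts without and 252 ± 19.5 with loss of Vangl2 (log2 difference 0.65, limma adjusted p = 0.233).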
